A study of Mus musculus with 9 samples.

Results

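The heterozygous (Het) line of an Oga allelic series was set against the midpoint of its wild-type (WT) and knockout (KO) lines, to find genes that depart from a linear order by Oga copy number. Mouse embryonic fibroblasts (MEFs) came from female embryos at E12.5 and carried 2 (WT), 1 (Het) or 0 (KO) working copies of Oga. RNA was hybridised to 9 expression arrays, 3 per line, and the contrast used all 9 of the series' 9 arrays: the mean of the Het arrays minus the average of the WT and KO means, here called the departure. All 45037 non-control probe sets were fitted, of which 27022 passed a filter on low values and gave 12962 named genes, 1 probe set per gene. The heterozygous parents descended from a cross of a male with 1 floxed Oga allele on a background given as C57B1/6 with an MMTV-Cre female (B6129-Tgn(MMTV-Cre)1Mam). MMTV-Cre places Cre recombinase under the mouse mammary tumour virus promoter, and whether the lines kept that transgene is not stated here. All arrays of a genotype carry one line code in the labels, so each genotype was 1 line, measured as 3 technical replicates, so every p-value below measures the spread between arrays only. Genotype cannot be told apart from any other difference between the 3 lines, and the contrast cannot tell a dose effect of Oga from a trait of the Het line or of either other line.

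O-GlcNAc is a single sugar that the transferase Ogt adds to serines and threonines of nuclear and cytoplasmic proteins and that the hydrolase O-GlcNAcase, encoded by Oga, removes. The donor sugar is made by the hexosamine pathway from glucose and glutamine, and the cycle of addition and removal acts on transcription factors, signalling proteins and metabolic enzymes. MEFs are short-term cultures of embryonic connective tissue in which other cell types can remain, among them macrophages, muscle precursors and epithelial cells.

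The deposited values are on a log2 scale, with array medians between 6.87 and 6.95. A departure of 0 means that Het lay halfway between WT and KO on that scale. Genes were called at an adjusted p below 0.05 (limma, Benjamini-Hochberg over the 12962 genes) together with a departure of at least 1, the 2-fold rule, or of at least 0.5, the 0.5 rule. The second value is what a gene shows when WT and KO are 2-fold apart and Het stands at the level of either. Some control probe sets also stood off the midpoint. The 3 probe sets of 18S ribosomal RNA averaged 13.36 ± 0.0736 in WT, 13.69 ± 0.0639 in Het and 13.20 ± 0.167 in KO (SD, n = 3 arrays), and 24 of 24 probe sets of the poly-A spikes added before labelling lay above the midpoint, by 0.30 on average. The 3' minus 5' difference, a sign of RNA integrity, stood 0.04 above the midpoint for actin and 0.07 for GAPDH, while the hybridization spikes departed by -0.03, with 2 of 18 probe sets above. Their part in the departures was not tested.

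Het departed from the midpoint by at least 2-fold in 18 genes, 0.139% of those tested: 8 above (0.0617%) and 10 below (0.0771%). The agouti gene a stood highest, 99.4-fold above the midpoint, and the ribonuclease gene Ang lowest, with a departure of -3.08. The 18 do not share one shape. In 6 genes (0.0463% of all genes) Het lay at least 2-fold outside both lines, above them in a, Npl and Ptprv and below them in Ang, Rpgrip1 and Trim13. In 5 others, Gbp2b, Lhx9, Sparcl1, Angptl4 and Cxcl5, Het passed the adjusted p threshold against both lines in one direction, which 13% of all genes did, but reached 2-fold against at most 1 of them. In the remaining 7, Het lay near WT (Oga, Ifi202b, Lgr5, Egfl6, Serpinb6b and Perp) or near KO (Tmem87a), and KO and WT themselves were at least 3.49-fold apart. Under the 0.5 rule 261 genes departed (2.01%), 134 above (1.03%) and 127 below (0.98%); 204 of them stood nearer WT and 51 nearer KO, beside the 6 outside both. By adjusted p alone Het was beyond both lines in 125 of the 261, and of those not beyond both 129 were nearer WT and 7 nearer KO. The adjusted p alone passed in 5232 genes (40.4%), 2583 above (19.9%) and 2649 below (20.4%), so small departures were common and the size minimum decides the counts. Fitted one by one without the filter, 50 of the 45037 probe sets departed at 2-fold (0.111%).

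**Figure D1:**
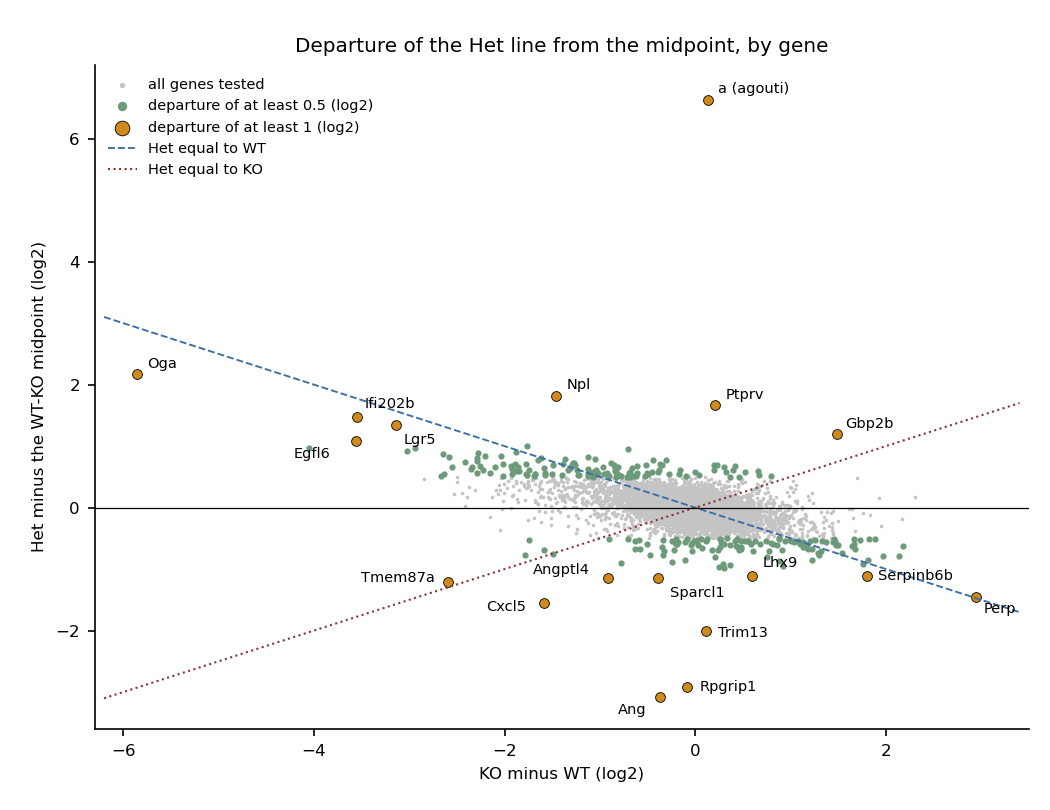
Each point is 1 of 12962 genes, with the difference KO minus WT (log2) on the horizontal axis and the departure of Het from the WT-KO midpoint (log2) on the vertical axis; the dashed line is where Het equals WT and the dotted line where it equals KO. The 18 named genes depart by at least 1: a, Ptprv, Trim13, Rpgrip1 and Ang lie at small differences between KO and WT, whereas Oga, Ifi202b, Lgr5, Egfl6, Serpinb6b and Perp lie closer to the dashed line than to the dotted one and Tmem87a next to the dotted one.

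Oga, the deleted gene, was itself among the departing genes on the log2 scale. Its most abundant probe set read 11.89, 11.93 and 11.95 on the WT arrays, 11.16 on each of the 3 Het arrays and 6.03, 6.08 and 6.08 on the KO arrays. The groups do not overlap, the order follows the copy number, and Het lay 1.70-fold below WT and 34.2-fold above KO. The departure was 2.16 ± 0.0313 (SE; 3 arrays in each line; adjusted p = 4.6e-12 by limma). The other 5 Oga probe sets, in a fit of all probe sets, departed in the same direction by 0.56, 0.77, 0.93, 1.15 and 1.18, and the mean over the probe sets gave 1.13. Taken on the linear scale, the midpoint of WT and KO is 10.94 in log2 units and Het departed from it by 0.21 (adjusted p = 0.00100). At this probe set the Oga departure was thus far smaller on the linear scale, though still past the adjusted p threshold. Its sign on that scale depends on the probe set. Those that departed by 1.15 and 1.18 read 10.74, 9.76 and 6.47, and 10.75, 9.55 and 5.99, in WT, Het and KO. These means put Het below the linear midpoint, opposite to the most abundant probe set, and no linear test was made for them. Ogt, the transferase gene, read 11.29, 11.16 and 10.88 in WT, Het and KO at its most abundant probe set, with a departure of 0.08 that did not pass (adjusted p = 0.312 over all probe sets), and its other 4 probe sets ranged from -0.15 to 0.22 with none past the threshold.

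The choice of scale mattered beyond Oga. A linear midpoint can never lie below the log2 midpoint, so linear departures are the lower of the pair for each gene. With the linear midpoint 20 genes departed at 2-fold, 4 above and 16 below, and 14 of the 18 genes were among them. Oga (0.21), Ifi202b (0.58), Lgr5 (0.61) and Egfl6 (0.18, adjusted p = 0.344) dropped under 2-fold, all of them genes near WT that were low in KO. Genes that joined were Rgs5 (-1.15), Ankrd1 (-1.17), Cxcl15 (-1.02), Ccl20 (-1.09), Parm1 (-1.12) and Ctla2a (-1.02). Under the 0.5 rule 236 genes departed from the linear midpoint, 62 above and 174 below. Of the 261 genes of the log2 midpoint 189 were kept, and 2 changed sign, the ferritin receptor gene Scara5 (0.97 on the log2 scale, -0.14 on the linear) and Lgi2 (0.51 and -0.04). None of the 6 genes outside both lines lost its call with the linear midpoint.

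The RefSeq windows around the start sites of the 4 genes with the largest departures among those outside both lines are shown so that their sequence can be set beside their values. Each runs from 250 bases before to 50 bases after a start on assembly GRCm38.p6, 5' to 3', and all 4 lie on the plus strand. Trim13 has 2 starts in the table, of which the first is shown. Capitals mark matches, on either strand, to 4 short motifs: the TATA box (TATAAA), the CCAAT box (its own letters), the GC box (written GGGCGG) and the E box (here CACGTG only).
a, chr2:155013320-155013619: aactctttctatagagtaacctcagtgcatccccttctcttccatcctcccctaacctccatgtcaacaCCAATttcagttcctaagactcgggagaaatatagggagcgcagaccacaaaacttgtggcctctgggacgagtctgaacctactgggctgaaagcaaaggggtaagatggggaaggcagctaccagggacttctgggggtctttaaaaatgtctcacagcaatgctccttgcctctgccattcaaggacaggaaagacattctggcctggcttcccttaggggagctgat
Trim13, chr14:61597976-61598275: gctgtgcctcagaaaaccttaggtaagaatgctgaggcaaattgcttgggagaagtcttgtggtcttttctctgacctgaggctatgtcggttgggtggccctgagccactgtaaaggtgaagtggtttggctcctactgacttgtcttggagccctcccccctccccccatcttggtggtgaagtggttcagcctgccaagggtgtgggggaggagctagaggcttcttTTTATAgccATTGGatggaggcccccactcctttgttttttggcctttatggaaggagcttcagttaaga
Rpgrip1, chr14:52110653-52110952: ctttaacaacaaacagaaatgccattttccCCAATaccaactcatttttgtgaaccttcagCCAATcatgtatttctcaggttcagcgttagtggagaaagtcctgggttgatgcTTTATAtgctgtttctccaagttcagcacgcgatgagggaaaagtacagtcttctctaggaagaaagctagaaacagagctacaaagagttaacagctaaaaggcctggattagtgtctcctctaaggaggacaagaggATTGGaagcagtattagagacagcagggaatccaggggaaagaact
Ang, chr14:51090827-51091126: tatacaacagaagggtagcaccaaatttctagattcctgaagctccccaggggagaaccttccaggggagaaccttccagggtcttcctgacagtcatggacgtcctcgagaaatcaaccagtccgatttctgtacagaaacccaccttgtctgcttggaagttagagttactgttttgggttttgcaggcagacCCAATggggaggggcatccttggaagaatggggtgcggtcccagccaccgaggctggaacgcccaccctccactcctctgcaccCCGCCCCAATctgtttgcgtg
The window of a held 1 CCAAT match and none of the others. Trim13 held 1 TATAAA and 1 CCAAT match, Rpgrip1 1 TATAAA and 3 CCAAT matches, and Ang 2 CCAAT matches and 1 GGGCGG match that shares a base with the second CCAAT. Of 32851 RefSeq windows of this length 13.6% hold TATAAA, 37.4% CCAAT, 35.7% GGGCGG and 7.15% CACGTG. A match describes letters only.

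Among genes above both lines, a encodes the agouti signalling protein, a secreted antagonist of the melanocortin receptor that controls coat pigment. Its arrays read 5.12, 5.32 and 5.44 in WT, 11.90, 11.99 and 12.09 in Het and 5.33, 5.46 and 5.48 in KO. WT and KO overlapped, both below the filter value of 6.22 for a mean over all arrays, and every Het array stood far above them. The departure was 6.63 ± 0.0695 (SE; adjusted p = 5.7e-13 by limma) and ranged from 6.58 to 6.68 when single arrays were left out. The list of melanocyte and pigmentation genes showed no such departure: 5 of its 13 genes passed the filter, with a median of -0.02. None was called under the 0.5 rule by limma, beside 2.01% of all genes, and 1 passed the adjusted p alone, beside 40.4%. That was Atrn, a receptor-like gene that acts with agouti, at -0.35 (adjusted p = 1.7e-05 by limma), with every Het array below all others. The next largest departure was -0.06 for Mitf, the melanocyte transcription factor gene.

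Npl encodes the lyase that breaks down sialic acid into N-acetylmannosamine, and is one of the hexosamine salvage genes. WT arrays read 8.42, 8.44 and 8.37, Het arrays 9.47, 9.43 and 9.60 and KO arrays 6.95, 6.90 and 6.99. Its 3 lines did not overlap: Het stood 1.09 above WT and 2.55 above KO, and the departure was 1.82 ± 0.0425 (adjusted p = 6.1e-10). Ptprv, a receptor-type phosphatase gene known as a p53 target in mouse, read 7.33, 7.35 and 7.35 in WT, 9.10, 9.23 and 9.03 in Het and 7.49, 7.58 and 7.58 in KO. Het was above both lines by at least 1.57, with a departure of 1.67 ± 0.0463 (adjusted p = 3.1e-09). Of the 16 measured genes of O-GlcNAc cycling and hexosamine metabolism, Oga and Npl were called above the midpoint and none below under the 0.5 rule. The list median was -0.07 beside 0.01 over all genes, and 3 of the 16 passed the adjusted p alone above and 7 below. Over all genes 1.03% departed above and 0.98% below under the 0.5 rule, and by adjusted p alone 19.9% and 20.4%.

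Below both lines, Ang, which encodes the secreted ribonuclease angiogenin, read 9.05, 9.05 and 9.14 in WT, 5.89, 5.75 and 5.81 in Het and 8.71, 8.70 and 8.71 in KO. The Het arrays all lay under the filter value, and the departure was -3.08 ± 0.0392 (adjusted p = 2.3e-12). This value came from a probe set that can detect several transcripts. A second such probe set departed by -2.91, but the probe set of Ang without that mark read 6.78, 6.31 and 6.55 in WT, Het and KO and departed by -0.36, so the size of the Ang departure rests on the probe set. Rnase4, a ribonuclease gene with 1 RefSeq start window identical to that of Ang, read 12.09, 12.07 and 12.03 in WT, Het and KO, a departure of 0.02.

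Rpgrip1, which encodes a scaffold protein of the photoreceptor connecting cilium, read 10.40, 10.39 and 10.36 in WT, 7.33, 7.53 and 7.41 in Het and 10.30, 10.31 and 10.29 in KO. All Het arrays were lower than all others, and the departure was -2.92 ± 0.0423 (adjusted p = 4.6e-12). Its other 3 probe sets had means over the arrays below the filter and departures between -0.06 and 0.14. Trim13, a ubiquitin ligase gene, read 8.54, 8.44 and 8.52 in WT, 6.50, 6.44 and 6.71 in Het and 8.57, 8.67 and 8.59 in KO. WT and KO overlapped, Het was 3.87-fold below WT and 4.18-fold below KO, and the departure was -2.01 ± 0.0568 (adjusted p = 3.4e-09).

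**Figure D2:**
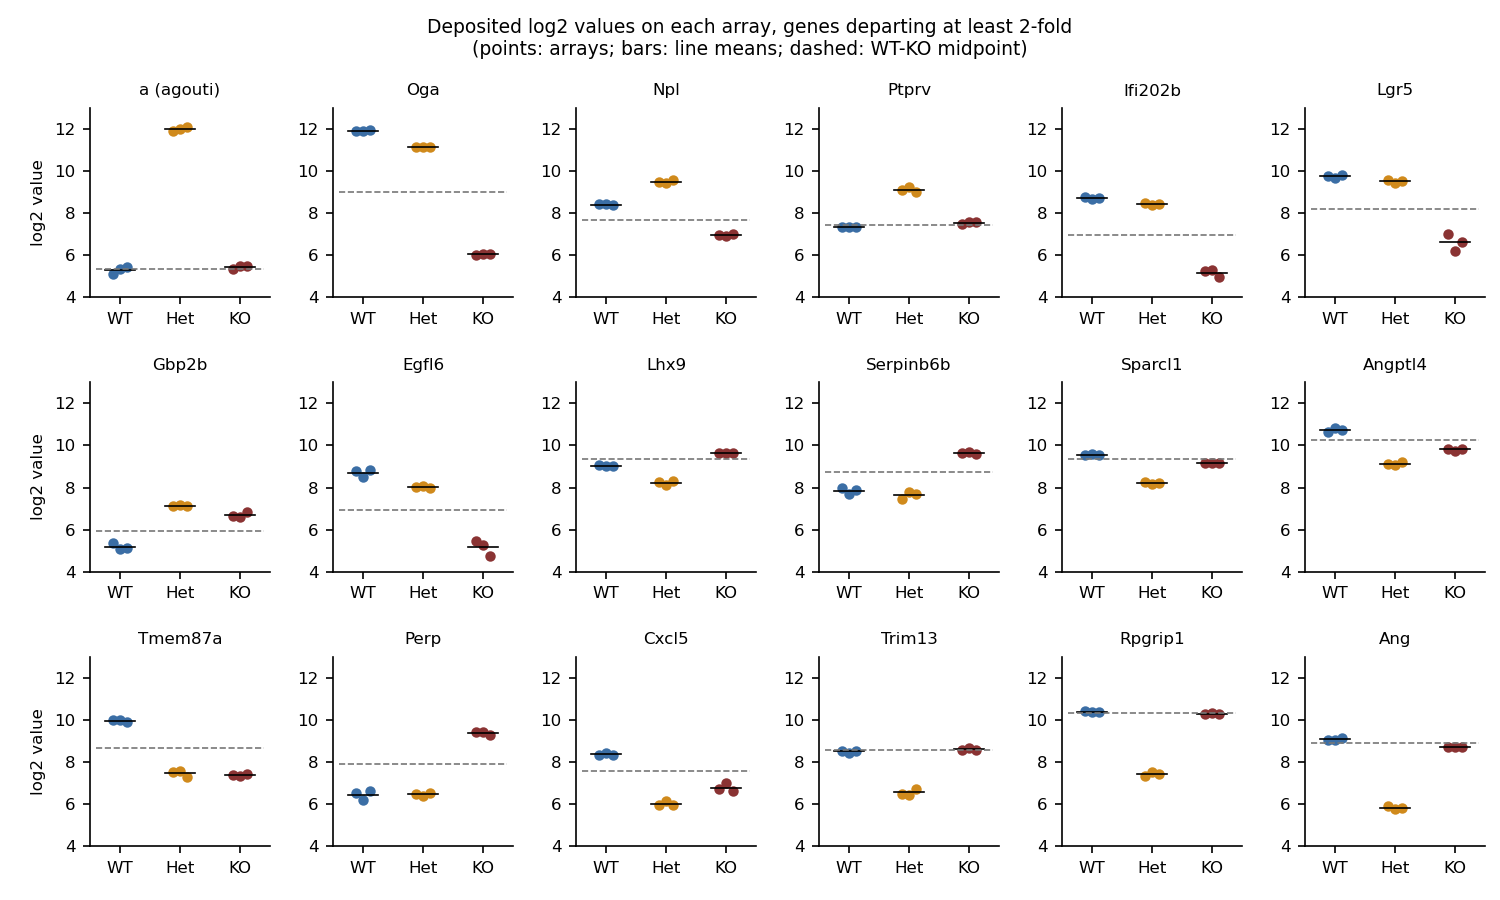
Deposited log2 values of the 18 genes that departed at 2-fold: points are the 3 arrays of each line, bars the line means and dashed lines the WT-KO midpoint. Het stands apart from both lines in a, Npl, Ptprv, Trim13, Rpgrip1 and Ang, at the WT level in Perp and Serpinb6b, and at the KO level in Tmem87a.

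Genes near the departing ones were read from the RefSeq gene table, which placed 12937 of the 12962 genes. Ang and Rpgrip1 lie within 2 Mb of each other, and no other pair of the 18 does. Around Ang 4 of 25 tested neighbours departed under the 0.5 rule, 16% beside 2.01% of all genes, but in both directions: Rpgrip1 and the predicted gene Gm26782 (7.25, 6.34 and 7.14 in WT, Het and KO, departure -0.85) below, and Armh4 (0.77) and the histone chaperone subunit gene Supt16 (0.51) above. Around a none of 66 tested neighbours departed under that rule by limma, with a range from -0.38 to 0.46. Of these neighbours of a, 19 passed the adjusted p alone, beside 40.4% of all genes, and 31 an unadjusted p below 0.05. Its closest neighbours included Ahcy (-0.07), Eif2s2 (-0.05), Raly (0.07) and Itch (-0.13). None of the 57 neighbours of Oga departed under the 0.5 rule by limma either, with a range from -0.39 to 0.27. Of them 18 passed the adjusted p alone and 24 an unadjusted p below 0.05. At 2.01% few or no calls under the 0.5 rule are due among 66 or 57 genes. Their absence around a and Oga is therefore not a result about these neighbours. No share over all genes was taken for the unadjusted p. Around the chemokine gene Cxcl5, 3 of 27 departed under the 0.5 rule, 11.1% beside 2.01% of all genes. All were below: the chemokine gene Cxcl15 (-0.77), the epiregulin gene Ereg (-0.55) and Parm1 (-0.85). The chemokine genes Pf4 and Cxcl1 in the same cluster stood at 0.35 and 0.0010. Gene groups lie in clusters, so neighbours are not independent of each other.

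**Figure D3:**
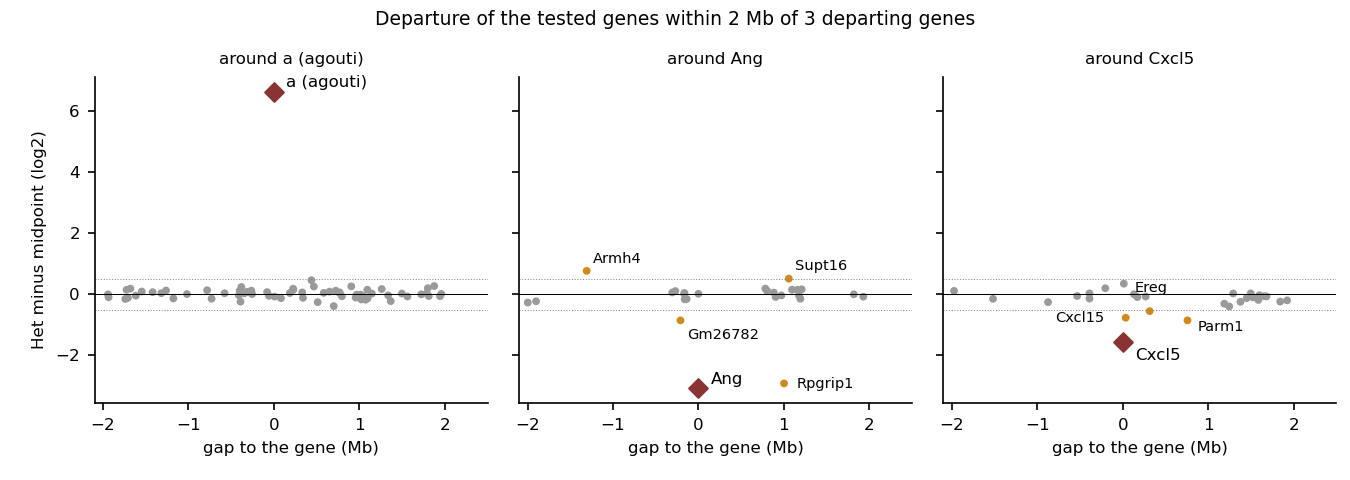
Departure (log2) of the tested genes within 2 Mb of the agouti gene a, Ang and Cxcl5, plotted against the gap to that gene (Mb, negative towards lower positions); diamonds are the gene itself and dotted lines mark 0.5 in either direction. Named neighbours departed under the 0.5 rule: 0 of 66 around a, 4 of 25 around Ang and 3 of 27 around Cxcl5, beside 2.01% of all genes.

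Other genes at 2-fold had Het beyond both lines by less. Gbp2b, an interferon-induced GTPase gene, read 5.37, 5.08 and 5.11 in WT, 7.11, 7.19 and 7.10 in Het and 6.63, 6.58 and 6.81 in KO. Every Het array was above every other, though Het exceeded KO by only 0.46, and the departure was 1.20 ± 0.0691 (adjusted p = 1.0e-06). Cxcl5, a neutrophil-attracting chemokine gene, was the converse, with 8.34, 8.43 and 8.31 in WT, 5.97, 6.13 and 5.97 in Het and 6.70, 7.01 and 6.64 in KO. Het was lower than both lines and the departure was -1.55 ± 0.0754 (adjusted p = 3.1e-07).

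Angptl4, an inhibitor of lipoprotein lipase, read 10.65, 10.83 and 10.72 in WT, 9.10, 9.07 and 9.21 in Het and 9.84, 9.76 and 9.84 in KO, a departure of -1.15 ± 0.0475 (adjusted p = 1.0e-07). Sparcl1, a matricellular protein gene, read 9.53, 9.60 and 9.53, then 8.26, 8.17 and 8.21, then 9.16, 9.17 and 9.15 in the same order, a departure of -1.14 ± 0.0341 (adjusted p = 5.2e-09). Lhx9, a LIM homeobox gene of gonad and limb development, read 9.07, 9.03 and 9.02 in WT, 8.28, 8.10 and 8.32 in Het and 9.63, 9.65 and 9.63 in KO, a departure of -1.11 ± 0.0466 (adjusted p = 1.0e-07). In all 3 genes the Het arrays lay below every WT and KO array. The other 3 Lhx9 probe sets departed in the same direction, by -1.30, -0.85 and -0.60.

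Where Het lay near one line, that line was mostly WT. Ifi202b, an interferon-inducible gene of the DNA-sensing p200 family, read 8.77, 8.69 and 8.72 in WT, 8.47, 8.40 and 8.42 in Het and 5.26, 5.28 and 4.98 in KO (departure 1.48 ± 0.0616, adjusted p = 1.0e-07). Lgr5, a receptor for R-spondins that marks stem cells of several tissues, read 9.76, 9.67 and 9.81, then 9.59, 9.43 and 9.51, then 6.99, 6.20 and 6.62 (departure 1.34 ± 0.128, adjusted p = 2.5e-05). Egfl6, a secreted matrix protein gene, read 8.78, 8.51 and 8.85 in WT, 8.03, 8.05 and 7.96 in Het and 5.45, 5.28 and 4.73 in KO. In all 3 genes the KO arrays were far below and the Het arrays below those of WT by less. The probe set that stood for Ifi202b, like that for Angptl4, can detect several transcripts, so related genes may share its signal. Another, annotated to both Ifi202b and LOC100044068, read 8.53, 8.32 and 4.17 in WT, Het and KO (1.97). The Egfl6 departure of 1.08 ± 0.132 (adjusted p = 1.2e-04) was 0.974, under 2-fold, without KO replicate 3.

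Perp, a p53-induced gene of cell adhesion and apoptosis, gave the mirror image: 6.51, 6.18 and 6.63 in WT, 6.50, 6.37 and 6.52 in Het and 9.44, 9.41 and 9.29 in KO (departure -1.45 ± 0.0844, adjusted p = 1.1e-06). WT and Het overlapped while KO was apart. Serpinb6b, a serine protease inhibitor gene, also had WT and Het overlapping, with 7.98, 7.71 and 7.86 in WT, 7.45, 7.78 and 7.69 in Het and 9.63, 9.71 and 9.61 in KO (departure -1.11 ± 0.074, adjusted p = 2.4e-06). Tmem87a, a Golgi membrane protein gene, was the single one of the 18 at the KO level: 9.99, 9.99 and 9.88 in WT, 7.53, 7.56 and 7.26 in Het and 7.38, 7.31 and 7.40 in KO (departure -1.21 ± 0.0623, adjusted p = 4.5e-07). Of the 18 genes, 7 had at least 1 line mean below the filter value, so the sizes of their departures hold for the deposited values only.

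To place Het for genes that differ between the other lines, its position was computed for the 462 genes (3.56% of those tested) that differed at least 2-fold between KO and WT, with 0 at the WT level, 0.5 at the midpoint and 1 at the KO level. The median position was 0.26 on the log2 scale, with quartiles of 0.15 and 0.40, and 402 of 462 genes (87.0%) lay below 0.5. In all, 33 genes lay below 0 and 3 above 1, so Het was between the lines for most. Single Het arrays gave medians of 0.29, 0.26 and 0.25. With the linear scale the median was 0.34, with quartiles of 0.17 and 0.50, and 348 genes (75.3%) lay below 0.5. The scale acted in opposite ways on the directions: the 334 genes lower in KO had medians of 0.27 (log2) and 0.39 (linear), and the 128 genes higher in KO 0.22 and 0.15. Het was therefore nearer WT than KO in the median gene on both scales and in both directions. Macrophage genes, among them C1qa, Lyz2 and Csf1r, belong to the 334 genes lower in KO, and their part in the median was not tested. The position uses the same WT and KO arrays that chose these genes, the genes share those arrays, and with 1 line per genotype it describes these lines, so no test was made.

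**Figure D4:**
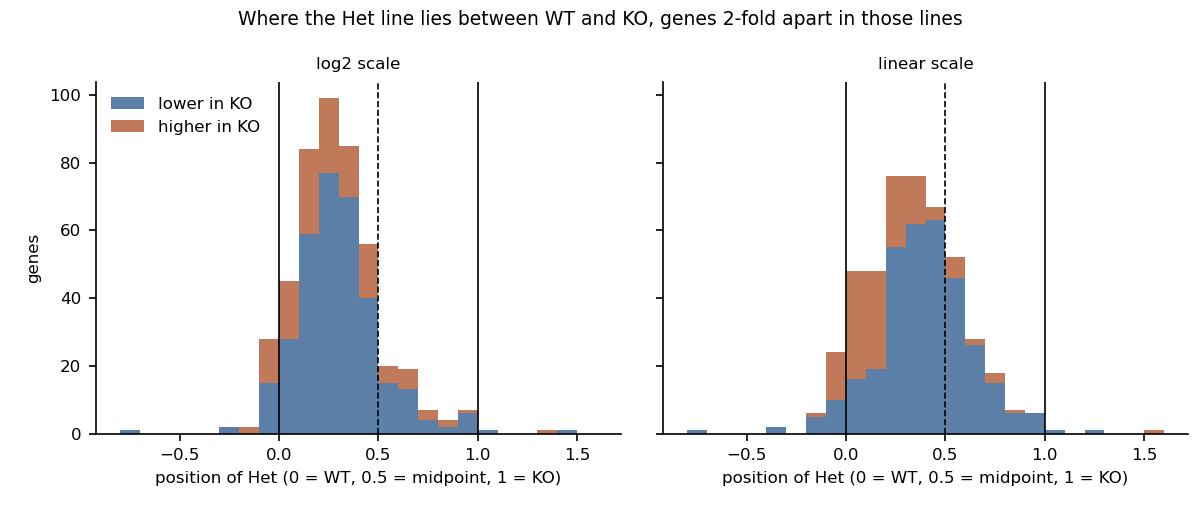
Histograms of the position of Het between WT (0) and KO (1) for the 462 genes that differed at least 2-fold between KO and WT, on the log2 scale (left) and the linear scale (right); colours split genes lower (334) and higher (128) in KO, the dashed line is the midpoint, and values past the ends are drawn in the end bins. The median is 0.26 on the log2 scale and 0.34 on the linear scale, with 402 and 348 genes below 0.5.

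Macrophage and blood genes departed together above the midpoint. Of 22 listed symbols 21 were measured, 11 departed above under the 0.5 rule and 0 below, beside 1.03% and 0.98% of all genes. The adjusted p alone passed above in 21 of 21, beside 19.9% of all genes. Departures ran from 0.12 to 0.71 with a median of 0.52 (SD 0.06 between Het arrays), beside 0.01 over all genes. The complement gene C1qa (12.57, 12.39 and 10.79 in WT, Het and KO, departure 0.71), the lysozyme gene Lyz2 (13.77, 13.53 and 11.88, 0.71), the CSF1 receptor gene Csf1r (12.15, 12.11 and 10.67, 0.70) and Laptm5 (11.29, 11.36 and 10.03, 0.70) led the list. Laptm5 was at 0.37 with the mean of its probe sets and at 0.07 in its probe set that marks a single transcript. The mean level of the list lay between 11.24 and 11.26 on the WT arrays, 10.85 and 10.91 on the Het arrays and 9.47 and 9.54 on the KO arrays. All 3 ranges are apart, with Het closer to WT. From the linear midpoint the list median was 0.27. On that scale C1qa (0.45) and Lyz2 (0.42) were under 0.5, and Csf1r (0.52) and Laptm5 (0.56) were not. In bulk RNA fewer macrophages and less RNA per macrophage cannot be told apart, and the part of macrophage RNA in the departures of other genes was not tested.

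Interferon-stimulated genes were mixed. Of 37 measured, 4 departed above and 1 below under the 0.5 rule, beside 1.03% and 0.98% of all genes. The adjusted p alone passed in 15 above and 7 below, beside 19.9% and 20.4% of all genes. The median was 0.08 (0.01 from the linear midpoint). Ifi202b (1.48), Gbp2b (1.20) and Ifi27l2a (8.41, 8.23 and 6.37, departure 0.84) were above. Xaf1, a pro-apoptotic interferon-stimulated gene, was below, with 10.05, 8.57 and 8.46 in WT, Het and KO (-0.68), so Het was at the KO level at this probe set. Another Xaf1 probe set, with a mean under the filter, departed upward by 3.22 (4.80, 7.98 and 4.73). Of 22 measured chemokine ligand genes 4 departed below under the 0.5 rule and 0 above, beside 0.98% and 1.03% of all genes. The adjusted p alone passed in 9 below and 4 above, beside 20.4% and 19.9% of all genes, and the median was -0.14. Besides Cxcl5 they were Cxcl15 (8.02, 6.37 and 6.24, departure -0.77), Ccl20, a ligand of CCR6 (6.56, 6.77 and 8.53, -0.78), and Ccl7, a monocyte attractant (8.58, 7.87 and 8.24, -0.53). These 4 differ in shape: Het was at the KO level in Cxcl15, near WT in Ccl20 and below both lines in Cxcl5 and Ccl7. Ccl7 was at -0.496 without Het replicate 1.

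p53 targets stood mostly below the midpoint. Of 28 measured, 5 departed below and 1 above under the 0.5 rule, beside 0.98% and 1.03% of all genes. The adjusted p alone passed in 17 below and 3 above, beside 20.4% and 19.9% of all genes, and the median was -0.15. Ptprv (1.67) was the one above. Below were Perp (-1.45), the pro-apoptotic BH3 gene Pmaip1 (10.28, 10.43 and 11.79 in WT, Het and KO, -0.61) and the ectodysplasin receptor gene Eda2r (8.80, 8.78 and 9.97, -0.61), in which Het differed from WT by 0.02, 0.14 and -0.02. Mdm2, which encodes the ubiquitin ligase of p53, and Rprm completed the 5, both at -0.56. Hypoxia response and glycolysis genes went the other way, with a median of 0.14, and the adjusted p alone passed in 18 above and 4 below. Under the 0.5 rule 3 of 32 were above and 0 below, beside 1.03% and 0.98% of all genes. They were Ndufa4l2, a hypoxia-induced mitochondrial gene (10.15, 9.71 and 7.51, departure 0.88), the aldolase gene Aldoc (10.17, 10.18 and 8.56, 0.81) and Ankrd37 (7.46, 7.46 and 6.34, 0.56). In the last pair Het differed from WT by 0.0045 and 0.0024. From the linear midpoint Ndufa4l2 was at 0.34 and Ankrd37 at 0.46, under 0.5.

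In adipocyte differentiation 4 of 23 measured genes departed below and 1 above under the 0.5 rule, beside 0.98% and 1.03% of all genes. The list did not go one way: its median was 0.00035, and the adjusted p alone passed in 7 above and 6 below. Over all genes 19.9% passed it above and 20.4% below. Pparg, the master regulator of fat cell differentiation, read 6.82, 5.98 and 7.11 in WT, Het and KO (departure -0.99 ± 0.0427, adjusted p = 1.2e-07), below both lines. Angptl4 (-1.15), the fatty acid binding protein gene Fabp4 (8.10, 7.09 and 7.62, -0.77) and the lipoprotein lipase gene Lpl (9.48, 8.66 and 8.90, -0.53) were below both lines too. Ebf2, a factor of brown fat precursors, was above (8.55, 8.79 and 7.86, 0.58; 0.43 with the mean of its probe sets).

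Of 28 measured Hox genes 2 departed under the 0.5 rule, both below (0.98% of all genes): Hoxa13 (6.78, 5.93 and 7.02 in WT, Het and KO, departure -0.97) and Hoxd13 (9.72, 8.96 and 10.08, -0.94), the most 5' genes of their clusters, which pattern hand and foot and the genital bud. A second Hoxd13 probe set departed by -0.99. The median over the 28 was -0.05. The adjusted p alone passed in 8 above and 11 below, beside 19.9% and 20.4% of all genes. Of 29 limb and body position factors 4 departed under the 0.5 rule, below the midpoint, beside 0.98% of all genes. The list did not go one way: its median was 0.03, 18 of 29 genes stood above the midpoint, and the adjusted p alone passed in 8 above and 6 below. The 4 were Tbx4, a T-box gene of the hindlimb (8.30, 7.53 and 8.60, -0.92), Hand2 (8.81, 7.83 and 8.18, -0.67), Gata6 (9.67, 9.23 and 9.98, -0.60) and Tbx18 (8.28, 8.03 and 8.97, -0.60). Het was the lowest line in all 6 of these genes. No label states which part of the embryo each culture grew from.

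Of 34 measured Wnt pathway genes 2 departed above and 4 below under the 0.5 rule, beside 1.03% and 0.98% of all genes. The adjusted p alone passed in 6 above and 13 below, beside 19.9% and 20.4% of all genes, and the median was -0.01. Lgr5 (1.34) and the feedback inhibitor gene Nkd1 (8.63, 8.79 and 7.80, departure 0.58; 0.33 with the mean of its probe sets) were above. The secreted antagonist gene Frzb was below both lines (9.56, 8.86 and 9.76, -0.80), and its relative Sfrp2 read 9.38 in WT but 7.89 in both Het and KO (-0.75). Of 38 measured collagen and matrix genes 4 departed above under the 0.5 rule and 0 below, beside 1.03% and 0.98% of all genes. The median was 0.04, and departures reached -0.46. The adjusted p alone passed in 16 above and 5 below, beside 19.9% and 20.4% of all genes. The type XVIII collagen gene Col18a1 was above both lines (11.38, 11.90 and 11.04, 0.69), as was the anchoring fibril collagen gene Col7a1 (10.25, 11.12 and 10.92, 0.53). Tgfbi, a TGF-beta-induced matrix gene (13.27, 12.97 and 11.26, 0.71), and Col6a3 (13.16, 13.11 and 12.03, 0.51) were near WT. Col6a3 and Col7a1 fell under 0.5 with median centring, at 0.46 and 0.49, and Col6a3 also without KO replicate 3, at 0.496; from the linear midpoint Tgfbi (0.38), Col6a3 (0.40) and Col7a1 (0.49) were under 0.5. In the TGF-beta and BMP list of 33 the median was -0.09. By adjusted p alone 15 passed below and 3 above, beside 20.4% and 19.9% of all genes. Under the 0.5 rule Tgfbi was above and Id4, an inhibitor of helix-loop-helix factors, below (9.22, 8.41 and 8.99, -0.69; -0.42 with the mean of its probe sets).

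Markers of other cell types had few departures under the 0.5 rule, which 2.01% of all genes passed. In skeletal and cardiac muscle 1 of 17 measured genes departed, the Z-disc gene Ldb3 (6.44, 6.84 and 8.26, departure -0.52), which was under 0.5 without WT replicate 1 (-0.43), Het replicate 2 (-0.495) or KO replicate 1 (-0.498). In smooth muscle and pericytes 1 of 17 departed, the pericyte gene Rgs5 (10.46, 10.75 and 12.60, -0.78), whose other 3 probe sets gave -0.99, -0.53 and -1.26. Of 8 epithelial and mesothelial genes the keratin genes Krt18 (6.91, 7.08 and 8.59, -0.67) and Krt19 (7.63, 7.74 and 8.90, -0.53) departed, the second under 0.5 without WT replicate 2 (-0.494) or Het replicate 1 (-0.4998). In each of these 4 genes Het was near WT and KO was higher. Of 5 endothelial genes the VEGF receptor gene Flt1 was below both lines (9.19, 8.78 and 9.67, -0.65).

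Neural and glial genes all stood above the midpoint, 10 of 10 measured, with a median of 0.29 (0.18 from the linear midpoint). One of them, the neuronal tubulin gene Tubb3, departed under the 0.5 rule (7.50, 8.24 and 7.82, 0.58; 0.476 without Het replicate 3), beside 2.01% of all genes. By adjusted p alone 6 passed, all above, beside 19.9% of all genes above. All 14 listed fibroblast markers passed the filter, at a mean level between 12.15 and 12.67 over the 9 arrays, which bears on the MEF label. Of these 1 departed under the 0.5 rule, the PDGF receptor gene Pdgfra, beside 2.01% of all genes, and the median was 0.04. Pdgfra read 11.46, 10.84 and 8.91 in WT, Het and KO (0.66), but 0.25 with the mean of its probe sets and 0.16 from the linear midpoint.

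**Figure D5:**
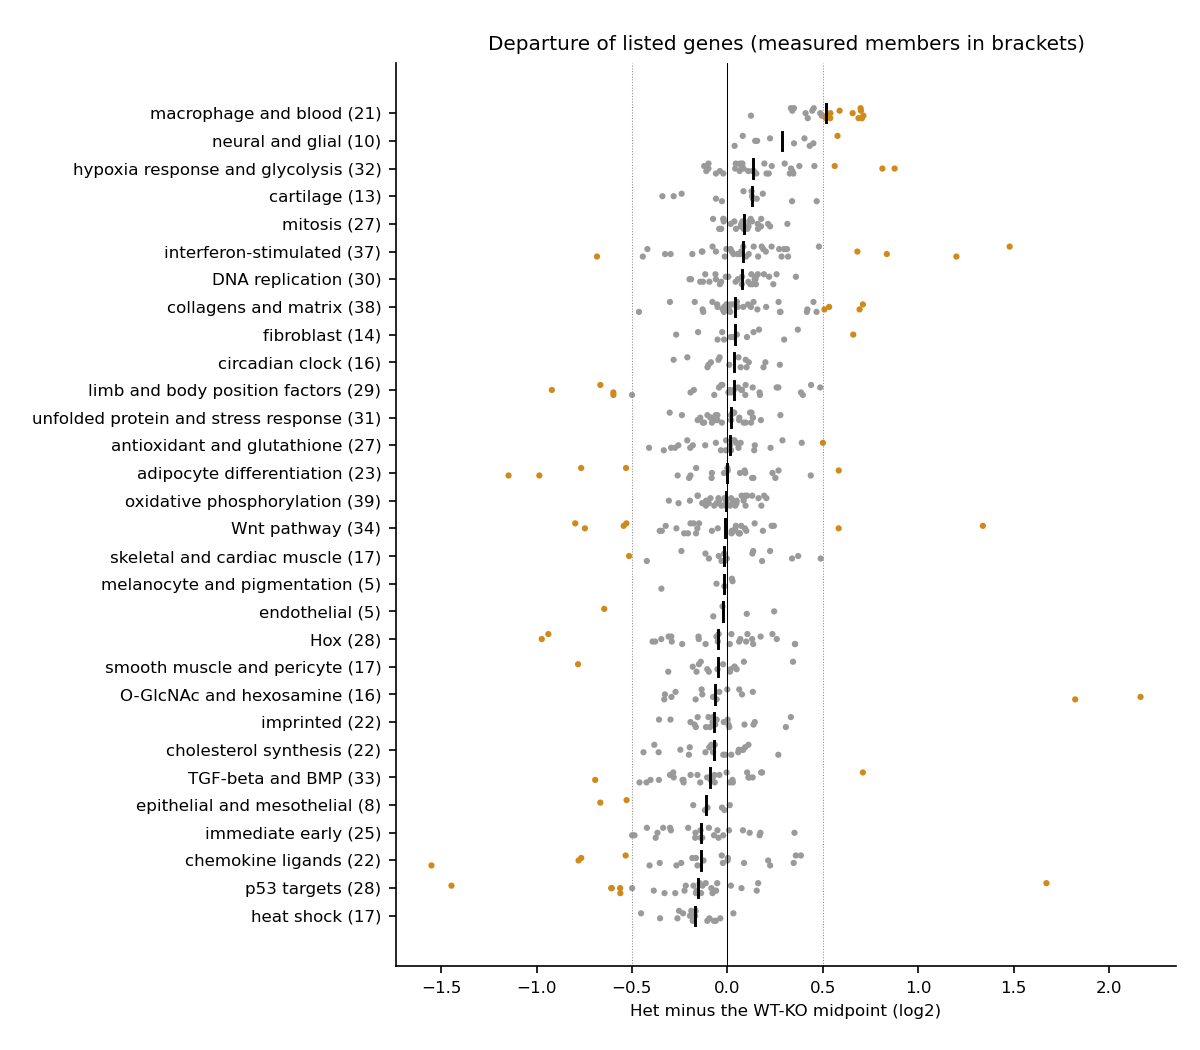
Departure of Het from the WT-KO midpoint (log2, horizontal axis) for the measured genes of each list with at least 5 of them (number in brackets), ordered by median; black bars are medians, orange points passed the 0.5 rule and dotted lines mark 0.5 in either direction. The macrophage and blood list has the highest median, 0.52, and the heat shock list the lowest, -0.17; a list's points share genes with other lists in a few cases, such as Tgfbi.

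Several housekeeping and stress programmes had no gene past the 0.5 rule, which 2.01% of all genes passed. This held for 11 of the 31 lists, with 247 measured genes and list medians from -0.17 to 0.13. At that share few or no calls are due in lists of these sizes, so their absence is not a result about a list. In the 11 lists limma passed 53 genes above and 62 below by adjusted p alone. At an unadjusted p below 0.05 the counts were 63 and 75, and no share over all genes was taken for that p. Within single lists the adjusted p alone could pass mostly one way, beside 19.9% of all genes above and 20.4% below. Mitosis had 11 above and 0 below, DNA replication 12 and 3, heat shock 0 and 11 and immediate early genes 3 and 14. None of 39 oxidative phosphorylation genes departed under that rule (median -0.01), nor any of 27 mitosis genes (0.09) or 30 DNA replication genes (0.08). Heat shock genes lay slightly below the midpoint in 16 of 17 cases, with a median of -0.17 and the small heat shock protein gene Hspb8 lowest at -0.45. Immediate early genes had a median of -0.14 over 25 genes, with the antiproliferative gene Btg2 at -0.499 and Egr2 at -0.49. Both passed 0.5 with median centring (-0.54 and -0.53) and from the linear midpoint (-0.65 and -0.59). Of 22 imprinted genes none departed (median -0.07), and Gatm, a creatine synthesis gene, was the most distant at -0.36, or -0.70 from the linear midpoint. Unfolded protein response (median 0.02), cholesterol synthesis (-0.07), circadian clock (0.03) and cartilage (0.13, or -0.04 from the linear midpoint) completed these lists with the melanocyte genes. Among 27 antioxidant genes Sod3, the extracellular superoxide dismutase gene, departed by 0.50, and was under 0.5 in several alternatives (down to 0.39 with the mean of its probe sets).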

How the data were processed

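RNA of 3 MEF lines was measured on 9 Affymetrix expression arrays. The authors deposited 45101 probe sets as log2 values (base taken from their range); the submitters' processing notes name GCOS and Partek, and the normalization and summarization are not given in the sources used here. Values were used without further normalization. The 64 control probe sets and the lowest 40% by mean (below 6.22) were left out. Probe sets with 1 symbol in the platform annotation (34945; 932 had several, 9160 none) were named, and the one with the highest mean stood for its gene. limma 3.58.1 in R 4.3.3 fitted the 3 line means over all 9 arrays, with Benjamini-Hochberg adjustment over 12962 genes. The linear midpoint used the delta method. Genes named are Oga, Ogt, the 15 largest departures each way under the 2-fold rule, up to 10 each way outside both lines, up to 4 called members of each list (or 2 where none was called), and neighbours within 2 Mb, leaving out clone names among the largest departures; others were chosen after their values were seen. Members and lists were chosen with earlier results of these data known. On simulated data for this contrast over 12962 genes, departures of 0.5, 1, 1.5 and 2 were called in 0%, 46%, 100% and 100% of 50 genes each at 2-fold and in 42%, 100%, 100% and 100% under the 0.5 rule; of 12762 unchanged genes 0 and 1 were called. Alternatives were quantile normalization, median centring, other filters, probe set choices, scales, variance models and fold minimums, a replicate block, and each array left out. Arrays give no read depth, and their number limits the precision. Start windows came from RefSeq, assembly GRCm38.p6, whose gene table served for neighbours only. Figures used matplotlib 3.10.9 in Python 3.11.15.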

Additional observations from a re-analysis of the deposited data

Results flagged for a closer look

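Probe sets without a gene symbol entered no comparison by gene, and 3 of those that departed at 2-fold over all 45037 non-control probe sets were at least 2-fold higher in Het than in WT, the control line. Probe set 1447526_at was higher by 1.66 (6.43, 8.08 and 7.32 in WT, Het and KO), 1457386_at by 1.49 (5.46, 6.94 and 5.71) and 1445773_at by 1.14 (7.21, 8.35 and 7.33). In all 3 Het was the highest line. Of the 10 without a symbol, 2 others were at least 2-fold lower in Het than in WT, by differences of -1.72 and -1.43, and the largest departure was also downward (8.30, 7.39 and 10.26, departure -1.89). Groups of 3 arrays were not tested for single outlying arrays.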

How the results depend on the processing

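With single arrays left out, 17 to 21 genes departed at 2-fold (7 to 10 above, 10 to 12 below), 254 to 276 under the 0.5 rule (124 to 164 above, 112 to 138 below), 6 lay outside both lines each time and the median position of Het was 0.255 to 0.268. All 18 genes stayed at 2-fold in each of these except Egfl6 without KO replicate 3 (0.974). Leaving out the lowest 60% of probe sets kept 12 of 12 genes still tested, 4 of them above. With all 23170 named probe sets past the filter tested separately, 35 departed at 2-fold (15 above, 20 below) and 11 lay outside both lines. Under the 0.5 rule 714 departed (246 above, 468 below), beside 134 and 127 by gene. The count below thus rose more than that above, and the near-even split by gene was not seen among single probe sets. The linear midpoint gave 4 above and 16 below at 2-fold, 62 above under the 0.5 rule and a median position of 0.336; it is never below the log2 midpoint. A 1.5-fold minimum gave 155 genes and none gave 5232. The share above the midpoint under the 0.5 rule was 51.3% (134 to 127) as deposited, 37.9% with median centring (103 to 169, with the median of all genes shifted by -0.045), 34.5% for probe sets (246 to 468) and 26.3% with the linear midpoint (62 to 174). With quantile normalization it was 54.5%, with the mean of probe sets 50.4% and with no filter 49.6%. No departure reported changed sign past a threshold under an alternative. Among probe sets that mark a single transcript 15 of 16 genes stayed, Ang being lost (-0.36). Same-numbered arrays correlated by -0.18 to 0.21 in their deviations from the line means, 2 of 9 pairs over 0.1, and 4 of 9 arrays correlated best with their own number, so the numbers were not taken to pair arrays; with the replicate block 18 and 261 genes departed, as without it. Values near background limit the size of a departure.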

Other observations

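Over all 45037 non-control probe sets 50 departed at 2-fold (0.111%), of which 18 stood for their genes above, 21 were further probe sets of named genes, 10 had no symbol and 1 had several. The genes that follow were chosen after their values were seen. In some, a single probe set departed while the others of the gene did not. A probe set of Xaf1 with a mean under the filter read 4.80, 7.98 and 4.73 in WT, Het and KO (departure 3.22), opposite to the most abundant Xaf1 probe set (-0.68). One of Snx6, a sorting nexin gene, read 4.78, 7.34 and 4.71 (2.60), while its other 3 lay between -0.14 and 0.07. For Uqcr10, a subunit gene of respiratory complex III, one read 8.46, 5.92 and 8.48 (-2.55), and the others departed by 0.18 and -0.25.

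Pdxdc1 had probe sets that disagreed between all lines. One read 5.91, 11.37 and 12.27 in WT, Het and KO (departure 2.28), and another went the opposite way between WT and KO, with 11.51, 10.70 and 7.50 (1.19). Its other 2 probe sets departed by -0.04 and -0.42. Both probe sets of Dvl2, a Wnt signal transducer gene (-0.89 and -1.37), and both of Frzb (-0.80 and -1.29) were below both lines. Of the 5 probe sets of Sfrp1, a secreted Wnt antagonist gene, one departed by -1.19 and the others lay between -0.34 and 0.23. Ppbp, a platelet chemokine gene with a mean under the filter, read 6.75, 5.17 and 6.44 (-1.43).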
